A study of Bos taurus with 15 samples.

Results

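The comparison described here set the post region of anchored engineered meniscus tissue against its middle region. Both groups were chosen by the treatment label alone, 3 anchored post libraries and 3 anchored middle libraries, so 6 of the 15 libraries of the study. Both held bovine meniscal fibrochondrocytes in collagen, shaped in a 3D-printed mold with post anchors and cut into regions at day 28. Further groups without anchors, unanchored post and unanchored middle, and a group of cells in collagen with no mold made up the rest of the study, with 3 libraries each. All groups shared one medium sequence: growth medium for 3 days (DMEM with GlutaMAX, 10% FBS and pen-strep), and chondrogenic medium for the next 25 days (DMEM with GlutaMAX, pen-strep, ITS-X, NEAA, 50 µg/ml ascorbic acid, dexamethasone at 1e-07 M and 10 ng/ml TGF-β3). Every group therefore received a glucocorticoid and a TGF-β throughout the second phase. The labels give no donor, animal or passage, and they do not say whether the 3 libraries of a group came from separate tissues or from pieces of one, since each region was cut further before extraction. The p-values below therefore describe library-to-library spread, which may be technical. In what follows, post and middle mean the anchored regions unless unanchored is written, and 3 values in a row belong to libraries 1, 2 and 3.

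The meniscus is a fibrocartilage of the knee. Its cells make the fibrillar collagens of tendon and ligament together with molecules of cartilage such as aggrecan, and the balance differs between its zones. Collagen fibrils are assembled from procollagen, spaced by small leucine-rich proteoglycans and crosslinked by lysyl oxidases, while fibrillin microfibrils and elastin give recoil. In an engineered tissue the cells pull on the collagen they sit in. Where a tissue is held at its ends, as the horns of the meniscus are held to bone, tension runs along it, and TGF-β, integrins, the actin cytoskeleton and the YAP and SRF transcription pathways are the usual routes by which fibroblast-like cells read such tension. The comparison asks whether the cells next to the anchoring posts differed from those of the middle of the same kind of tissue.

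Total counts were 4970209, 5663815 and 7415701 in anchored post libraries 1, 2 and 3, against 7287672, 2986944 and 6706643 in anchored middle libraries 1, 2 and 3, which are called post 1 to post 3 and middle 1 to middle 3 below. Within a group, pairs of libraries had r = 0.972 to 0.993 over genes, and pairs across the regions had r = 0.969 to 0.987. These ranges overlap, and genes are not independent replicates. Middle 2, the shallowest of the 6, stood apart: it scored -24.7 on the first principal component of the 6 libraries (43.2% of the variance), against -2.14 and 3.89 for the other middle libraries and 5.5 to 10.2 for the post libraries. Transcripts of the mitochondrial genome took 1.76% ± 0.125 of counts at the post and 2.06% ± 0.294 in the middle (SD, n = 3 each; two-sided exact permutation p = 0.3, where 0.1 is the smallest possible). The labelled cell type showed its markers: all 12 fibrochondrocyte markers looked for were measured in both regions, among them COL1A1, DCN, FMOD and LUM. Of the 12, COL3A1, ACAN and COMP were lower at the post in the edgeR test below and 0 were higher. The median log2 fold change, post minus middle, was -0.43, with 11 values negative. LUM, the gene of lumican, was the 1 with a positive value: it had 7949, 8497 and 8793 CPM at the post, against 7610, 6090 and 6854 in the middle.

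Anchored post and anchored middle differed mainly by lower expression at the post. Of 11834 genes tested, 227 passed the edgeR quasi-likelihood test at a p of 0.05 after Benjamini-Hochberg (BH) adjustment (1.92%). Of these, 197 were lower at the post (1.66% of genes tested) and 30 were higher (0.254%). These shares are the background for every list count below. The lists were chosen with earlier results of these data known, so a share above background is a description and not a test. At an unadjusted p of 0.05, 1654 of the 11834 genes (13.98%) passed in edgeR, the background for unadjusted list counts. The lower genes had a median log2 fold change of -0.70 (range -2.54 to -0.35) and the higher ones of 0.51 (range 0.31 to 1.54), where log2 fold change always means post minus middle. Of those that rose, 3 changed by at least 2-fold (MSLN, TNFAIP8L3 and TNKS1BP1), and of those that fell, 40 did. The median over all tested genes was 0.00094 after TMM scaling. Among the 227, 205 were protein-coding, of 11048 tested, and 20 were long non-coding RNAs, of 668 tested, and 25 carried no gene symbol. In 218 of them the 3 post and 3 middle libraries did not overlap, as was so for 17.6% of all tested genes (post below middle in 9.73%, above it in 7.82%). In bulk RNA, fewer cells of a kind and less RNA per cell cannot be told apart.

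**Figure D1:**
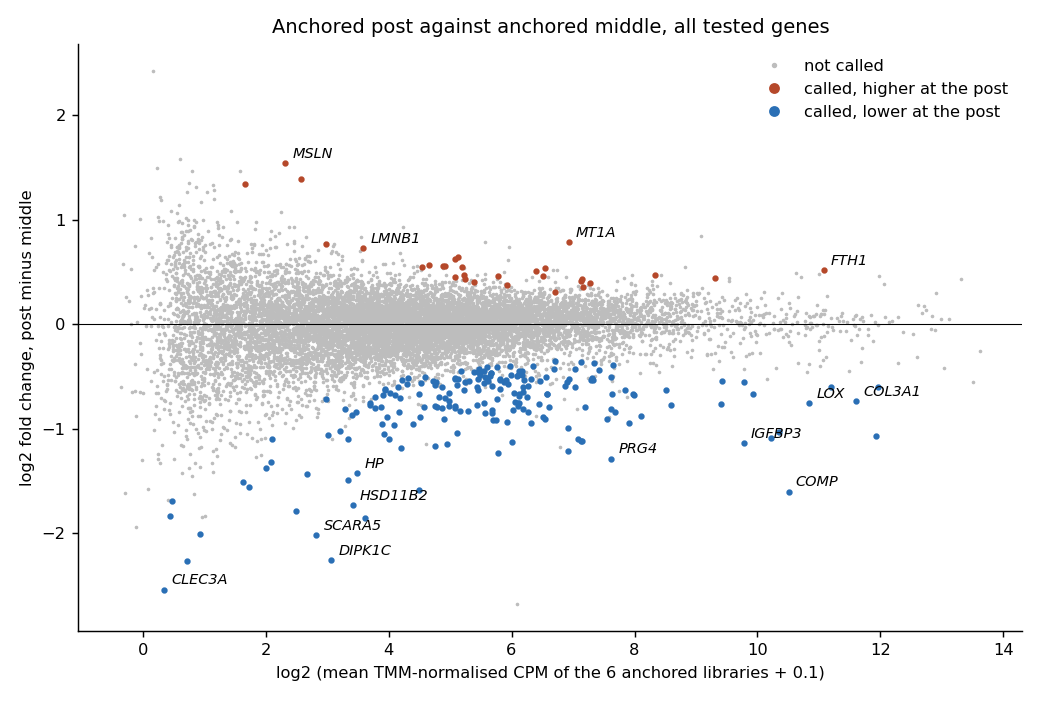
Each point is 1 of 11834 tested genes, with its mean level in the 6 anchored libraries (log2 of TMM-normalised CPM plus 0.1) on the x axis and its log2 fold change, post minus middle, on the y axis; red and blue mark genes past an edgeR adjusted p of 0.05. The 197 blue genes below 0 outnumber the 30 red genes above 0 and reach further from it, to -2.54 against 1.54.

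Which library was left out changed the number of calls but not their main direction. The count was 121 without post 1, 177 without post 2 and 62 without post 3, and 283, 217 and 96 without middle 1, 2 or 3. Without middle 2, 151 of the 227 genes were still called, and the calls were 56 higher and 161 lower. A fit of the 6 anchored libraries alone called 105, of which 6 were higher. DESeq2 called 266, of which 68 were higher, and 206 were shared with edgeR. Middle 2 was the highest of the 6 libraries in 142 of the 197 genes that fell, middle 3 in 40 and middle 1 in 15. In all 6 of the fits that left out one library, 47 genes were called, 44 lower and 3 higher. Of the genes named below, ACAN, ELN, FBN2 and SMOC2 passed in edgeR but not in DESeq2. ENPP1, COL12A1, FMOD, CTSK, TXN and CCND1 passed in DESeq2 but not in edgeR, as did the proteasome, respiratory chain and lysosome genes given below as DESeq2 calls. DESeq2 alone also called P4HA3 and ADAMTS2 (collagen folding and crosslinking), TIMP2 (proteases and inhibitors), ANGPTL4 (glucocorticoid) and FABP3 (lipid). Below, passing means edgeR unless DESeq2 is named. A gene is said to have held when it passed in all 6, and otherwise the libraries whose removal ended its call are given with the adjusted p that resulted.

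**Figure D2:**
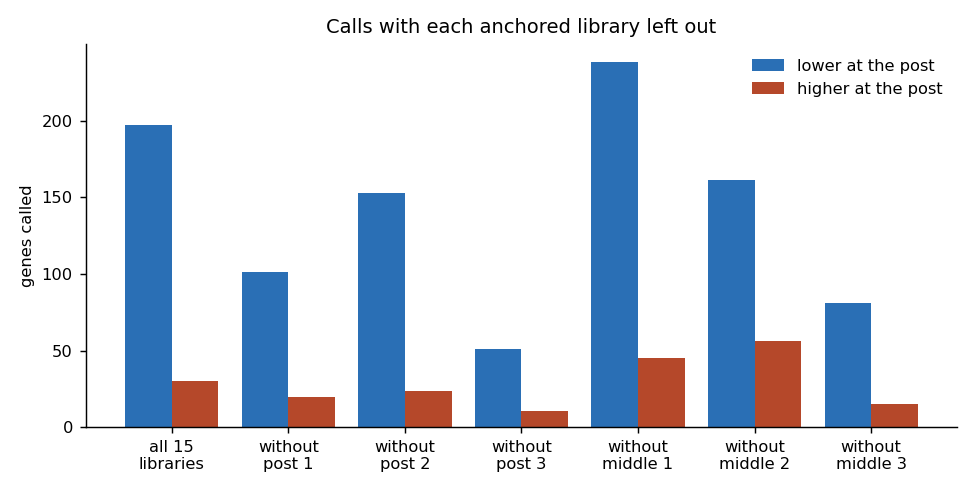
Bars give the number of genes called lower (blue) or higher (red) at the anchored post by edgeR, with all 15 libraries and with each anchored library left out in turn. Lower genes outnumber higher ones in every fit, and the total is smallest without post 3 (62) and largest without middle 1 (283).

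Genes of cartilage matrix were lower at the post. Of 13 measured members of that list, 8 fell (61.5%, against 1.66% of all tested genes), 0 rose and 5 did not pass. Earlier results of these data were known when the list was chosen, so this contrast is not independent evidence. The median log2 fold change was -0.88 (-0.67 without middle 2), and all 13 values were negative. Summed over the list, the libraries held 2522, 2240 and 2460 CPM at the post, against 3822, 6629 and 4632 CPM in the middle. COMP (ENSBTAG00000004630), a pentameric glycoprotein that binds collagen fibrils, had 772, 624 and 764 CPM at the post, against 1481, 3219 and 1868 in the middle (log2 fold change -1.60, SE 0.293, edgeR BH-adjusted p = 0.0036). PRG4 (ENSBTAG00000011932), which encodes lubricin, the lubricant of joint surfaces, had 98.2, 140.1 and 103 CPM at the post, against 213, 368 and 258 in the middle (log2 fold change -1.29, SE 0.182, edgeR BH-adjusted p = 0.000455). In both genes the highest post library lay below the lowest middle library, middle 2 was the highest of all, and the calls held. Of PRG4 counts, 80.6% sat in non-whole values, as reads shared between genes give.

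The other members that fell followed the same pattern with smaller fold changes or wider spread. HAPLN1, the link protein that fixes aggrecan to hyaluronan, had 305, 287 and 267 CPM at the post, against 368, 673 and 429 in the middle (log2 fold change -0.77, SE 0.149, edgeR BH-adjusted p = 0.00607). The HAPLN1 call ended without post 3 (0.054). CHAD, the cell-binding protein chondroadherin, had 37.5, 27.9 and 32.5 CPM at the post, against 71.5, 92 and 69.3 in the middle (log2 fold change -1.23, SE 0.243, edgeR BH-adjusted p = 0.00711). The CHAD call ended without post 3 (0.0507). ACAN, the gene of aggrecan, had 99.4, 63.6 and 99 CPM at the post, against 141, 256 and 179 in the middle (log2 fold change -1.12, SE 0.265, edgeR BH-adjusted p = 0.0267). The ACAN call ended without post 1 (0.0577), post 2 (0.112), post 3 (0.0702), middle 2 (0.0833) or middle 3 (0.0667), and in DESeq2 its adjusted p was 0.0986. The other 3 members that fell, named here because of their values, were COL11A1, a minor fibril collagen of cartilage (log2 fold change -0.55), and CILP and CILP2, matrix proteins of the cartilage intermediate layer (-0.79 and -0.63; edgeR BH-adjusted p = 0.03, 0.0107 and 0.0467). COL11A1 ended without post 1 (0.091), post 2 (0.0701), post 3 (0.113), middle 2 (0.0769) or middle 3 (0.103), CILP without post 1 (0.0634), post 3 (0.0702) or middle 3 (0.102) and CILP2 without post 1 (0.0651), post 2 (0.196), post 3 (0.0697) or middle 3 (0.238). Counted by library, 4, 5 and 2 members of the list were called without post 1, 2 or 3, and 8, 6 and 4 without middle 1, 2 or 3. COL2A1, the main collagen of hyaline cartilage, had 66.4, 78.4 and 55 CPM at the post, against 104, 277 and 85.5 in the middle, did not overlap between regions and did not pass (log2 fold change -1.18, SE 0.378, edgeR BH-adjusted p = 0.117). Without middle 2 its log2 fold change was -0.52.

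Among the transcription factors that direct cartilage genes, 1 of 7 measured fell and 0 rose. The median log2 fold change was -0.41 (-0.28 without middle 2), and all 7 values were negative. The member that fell was TRPS1, a GATA-type repressor needed for growth plate cartilage, with 156, 126 and 143 CPM at the post, against 199.5, 316 and 235 in the middle (log2 fold change -0.81, SE 0.144, edgeR BH-adjusted p = 0.00282), and it held. SOX9, the master regulator of chondrocytes, had 125, 114 and 134 CPM at the post, against 138, 146 and 136 in the middle and did not pass (log2 fold change -0.16, SE 0.1, edgeR BH-adjusted p = 0.481), nor did its partner SOX6 at -0.50 (edgeR BH-adjusted p = 0.191). Of 5 measured genes of hypertrophy and bone 0 passed in edgeR (1 at an unadjusted p of 0.05) and 1 in DESeq2, ENPP1. This gene, which makes the mineralisation inhibitor pyrophosphate, had 563, 469.8 and 549 CPM at the post, against 673, 809 and 646 in the middle (log2 fold change -0.43, SE 0.116, edgeR BH-adjusted p = 0.0548; DESeq2 adjusted p = 0.024), and SPP1, osteopontin, had a log2 fold change of 0.30 (edgeR BH-adjusted p = 0.491).

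**Figure D3:**
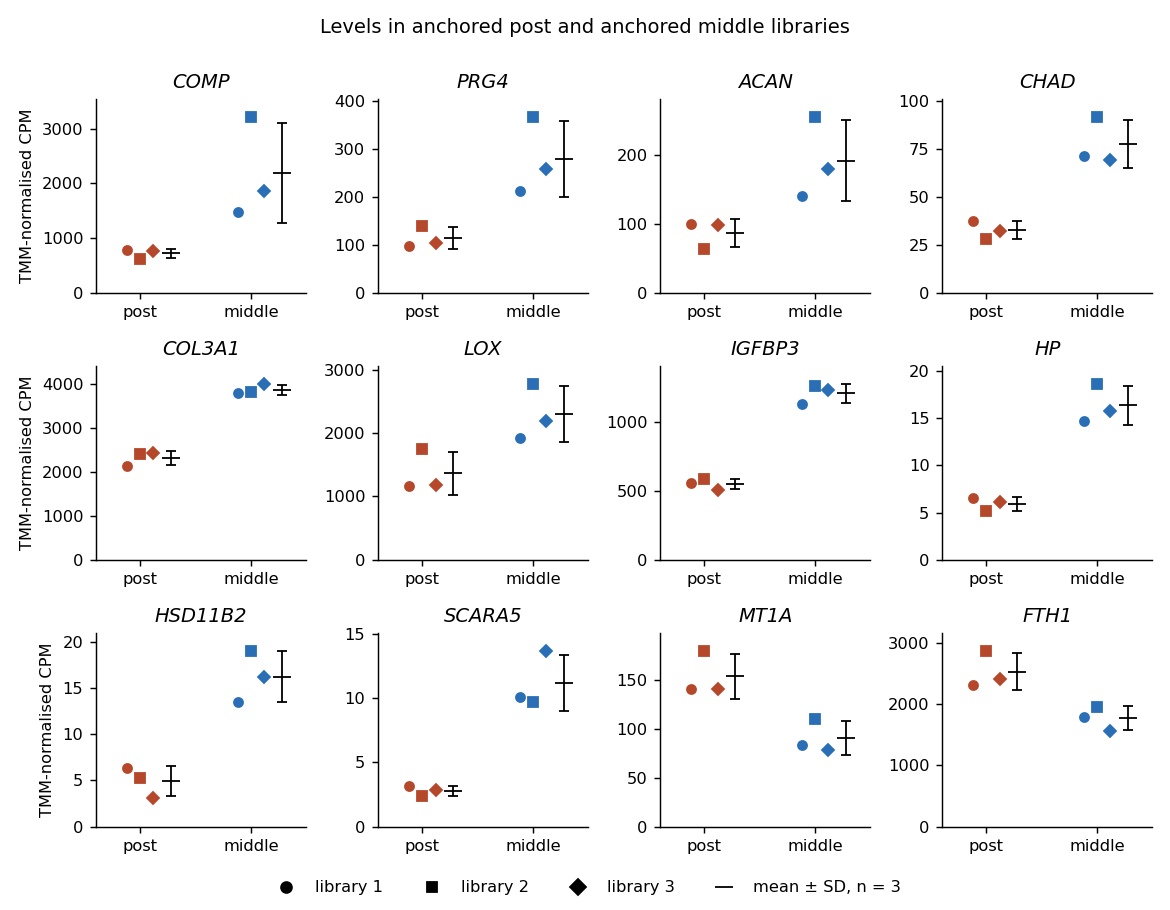
TMM-normalised CPM of 12 genes in the 3 anchored post libraries (red) and the 3 anchored middle libraries (blue), with the symbol giving the library number and the bar the mean ± SD (n = 3); each y axis starts at 0. The first 10 genes are lower in every post library than in any middle library, MT1A and FTH1 are higher, and middle library 2 (square) is the top middle point for COMP, PRG4, ACAN, CHAD, LOX, IGFBP3, HP and HSD11B2.

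Fibril-forming collagens leaned the same way. Of 7 measured, 2 fell and 0 rose, with a median of -0.42 and all 7 log2 fold changes negative. COL3A1, the collagen of thin and early fibrils, had 2145, 2407 and 2422 CPM at the post, against 3793, 3816 and 4014 in the middle (log2 fold change -0.74, SE 0.165, edgeR BH-adjusted p = 0.0185). COL5A2, a chain of the collagen that starts type I fibrils, had 1892, 1722 and 2012 CPM at the post, against 2709, 2769 and 3040 in the middle (log2 fold change -0.60, SE 0.136, edgeR BH-adjusted p = 0.0202). Here the 3 libraries of each region lay close together and middle 2 did not stand out, yet the calls were not secure: COL3A1 ended without post 1 (0.0951), post 3 (0.0653) or middle 3 (0.0702), and COL5A2 without post 1 (0.0689), post 2 (0.0691), post 3 (0.0549) or middle 3 (0.0926). The chains of type I collagen did not pass. COL1A2 had 7132, 6688 and 7712 CPM at the post, against 9505, 9212 and 9992 in the middle (log2 fold change -0.42, SE 0.146, edgeR BH-adjusted p = 0.167). For COL1A1 the values were 9873, 7417 and 10970 CPM at the post, against 12670, 13540 and 15360 in the middle (log2 fold change -0.56, SE 0.204, edgeR BH-adjusted p = 0.191).

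Among 12 other measured collagens 1 fell, COL16A1, which sits on fibrils and microfibrils, with 92.7, 81.7 and 107 CPM at the post, against 147, 106 and 166 in the middle (log2 fold change -0.59, SE 0.154, edgeR BH-adjusted p = 0.0473). Its post 3 and middle 2 values overlapped, and the call ended without post 1 (0.134), post 2 (0.165), post 3 (0.0697), middle 1 (0.0959) or middle 3 (0.271). COL12A1, a collagen of dense connective tissue that decorates fibrils, had 1254, 1640 and 1618 CPM at the post, against 1762, 2355 and 2090 in the middle and did not pass (edgeR BH-adjusted p = 0.0827). The list's median was -0.18. Of 27 measured genes of collagen folding and crosslinking 1 fell, the crosslinking enzyme lysyl oxidase: LOX had 1160, 1758 and 1183 CPM at the post, against 1928, 2786 and 2201 in the middle (log2 fold change -0.75, SE 0.15, edgeR BH-adjusted p = 0.00775), with post 2 the nearest to the middle. The LOX call ended without post 1 (0.0616) or post 3 (0.0704). SERPINH1, the collagen chaperone HSP47, had a log2 fold change of 0.02 (edgeR BH-adjusted p = 0.957), and the median of that list was -0.16.

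Small leucine-rich proteoglycans were mixed. Of 13 measured, 1 fell and 0 rose, with a median of -0.32, 10 negative values and 3 positive ones. OGN, osteoglycin, had 70.6, 95.9 and 67.8 CPM at the post, against 105, 123 and 107 in the middle (log2 fold change -0.51, SE 0.132, edgeR BH-adjusted p = 0.0438). The OGN call ended without post 1 (0.172), post 3 (0.224), middle 2 (0.1) or middle 3 (0.102). FMOD, fibromodulin, which limits fibril growth, had 2584, 1971 and 2751 CPM at the post, against 3588, 3192 and 3191 in the middle and did not pass (log2 fold change -0.45, SE 0.128, edgeR BH-adjusted p = 0.0712). Lumican had the opposite sign: its 3 post values, given above, all lay above its 3 middle values, and it did not pass either (log2 fold change 0.30, SE 0.124, edgeR BH-adjusted p = 0.271). DCN, decorin, had a log2 fold change of -0.15 (edgeR BH-adjusted p = 0.549).

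Elastic fiber genes were lower or did not pass. Of 17 measured members, 3 fell and 0 rose, 16 of the 17 log2 fold changes were negative, and the median was -0.29. ELN (ENSBTAG00000019517), elastin itself, had 776, 679 and 832 CPM at the post, against 1102, 2236 and 1535 in the middle (log2 fold change -1.09, SE 0.257, edgeR BH-adjusted p = 0.0261). FBN2, the fibrillin of developing microfibrils, had 52, 73.4 and 68.1 CPM at the post, against 101, 91.2 and 134 in the middle (log2 fold change -0.76, SE 0.191, edgeR BH-adjusted p = 0.0367), and MFAP4, a microfibril-associated protein that binds elastin, had 56.8, 41.3 and 60.5 CPM at the post, against 76.1, 90.9 and 90.2 in the middle (log2 fold change -0.69, SE 0.177, edgeR BH-adjusted p = 0.0438). None of the 3 overlapped between regions and none held: ELN ended without post 1 (0.0883), post 2 (0.0874), post 3 (0.0769), middle 2 (0.102) or middle 3 (0.0624), FBN2 without post 1 (0.17), post 3 (0.109) or middle 3 (0.236) and MFAP4 without post 1 (0.0927), post 2 (0.177), post 3 (0.0704), middle 2 (0.0695) or middle 3 (0.163). DESeq2 called MFAP4 alone of the list, with an adjusted p of 0.0699 for ELN and 0.14 for FBN2. The middle 2 value of ELN was the highest and its removal took the log2 fold change to -0.79.

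Of 17 measured genes of tendon and fibrous tissue 2 fell and 0 rose (median -0.25). ABI3BP, a collagen-associated matrix protein, had 20.7, 34.5 and 21.5 CPM at the post, against 40.4, 53.5 and 44.4 in the middle (log2 fold change -0.83, SE 0.182, edgeR BH-adjusted p = 0.0162). The ABI3BP call ended without post 1 (0.0927), post 3 (0.127) or middle 3 (0.0528). THBS3, a thrombospondin, fell by 0.58 on the log2 scale (edgeR BH-adjusted p = 0.0359). The THBS3 call ended without post 1 (0.0502), post 2 (0.145), post 3 (0.0819), middle 1 (0.0818) or middle 3 (0.185). The tendon transcription factors did not pass: SCX had 20.3, 21.2 and 27.4 CPM at the post, against 28.4, 35.2 and 34.6 in the middle (log2 fold change -0.48, SE 0.188, edgeR BH-adjusted p = 0.231), and MKX had a log2 fold change of 0.20 (edgeR BH-adjusted p = 0.514). TNC, tenascin C, a matrix protein of tissues under load, had 306, 297 and 374 CPM at the post, against 306, 221 and 268 in the middle (edgeR BH-adjusted p = 0.403), with overlapping regions, and FN1, fibronectin, had a log2 fold change of -0.25 (edgeR BH-adjusted p = 0.434).

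Of 32 measured genes of glycosaminoglycan and hyaluronan synthesis 2 fell and 0 rose (median -0.09). XYLT1, the enzyme that starts the chondroitin and heparan sulfate chains, had 129, 113 and 141 CPM at the post, against 187, 193 and 176 in the middle (log2 fold change -0.53, SE 0.0998, edgeR BH-adjusted p = 0.00428), and it held. HAS2, a hyaluronan synthase, had 32.3, 42 and 27.9 CPM at the post, against 46, 63.9 and 50.5 in the middle (log2 fold change -0.63, SE 0.155, edgeR BH-adjusted p = 0.0339). The HAS2 call ended without post 1 (0.117), post 3 (0.203), middle 2 (0.0887) or middle 3 (0.082). Of 24 measured proteases and inhibitors 1 fell, the metalloprotease inhibitor TIMP4, by 1.06 on the log2 scale (edgeR BH-adjusted p = 0.0359). The TIMP4 call ended without post 1 (0.0927), post 2 (0.0701), post 3 (0.16), middle 2 (0.0763) or middle 3 (0.0858). CTSK, the collagen-cutting protease cathepsin K, pointed upward with 4517, 4548 and 4940 CPM at the post, against 4210, 2586 and 3386 in the middle and did not pass (log2 fold change 0.46, SE 0.141, edgeR BH-adjusted p = 0.0974). The gelatinase MMP2 and the inhibitor TIMP1 had log2 fold changes of -0.06 and 0.14 (edgeR BH-adjusted p = 0.876 and 0.611). MMP3 had 18.5 counts in the 6 libraries together and was not tested.

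**Figure D4:**
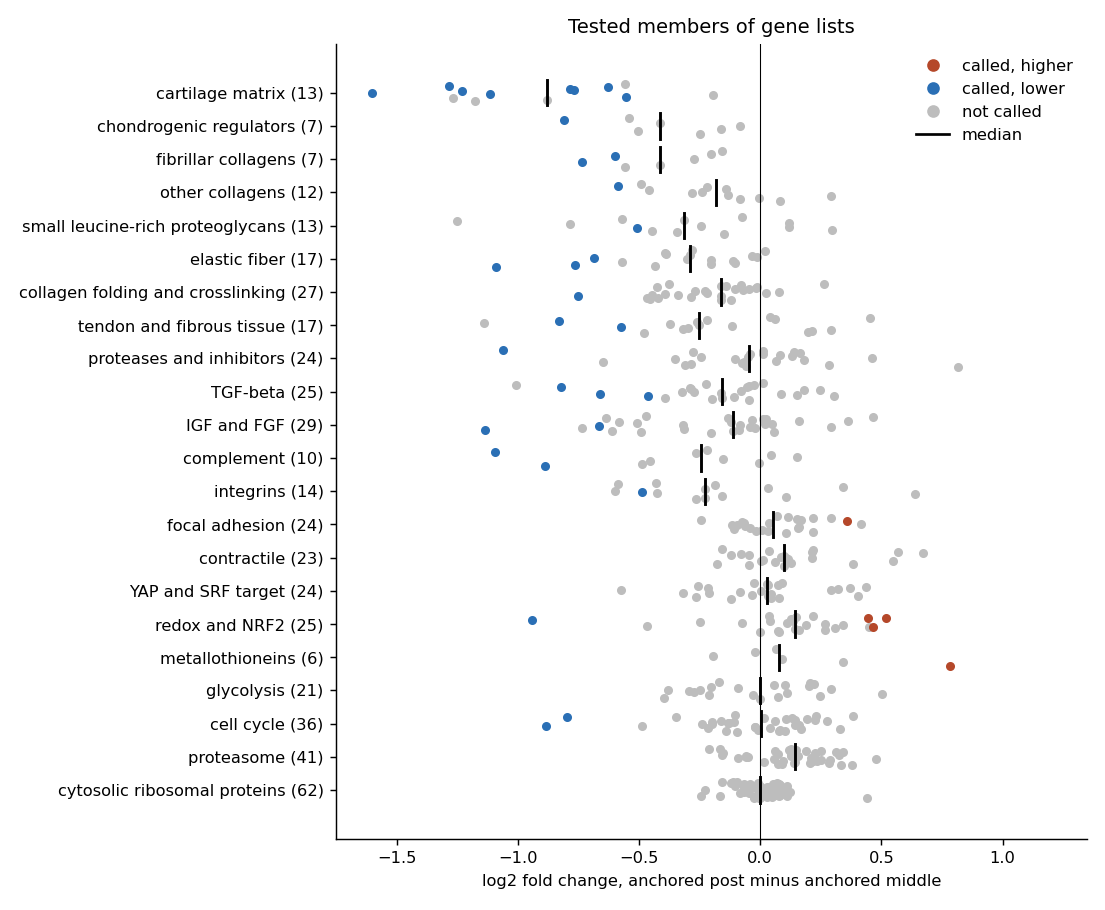
Each point is a tested member of a gene list, placed by its log2 fold change, anchored post minus anchored middle; blue and red mark members past an edgeR adjusted p of 0.05, the bar is the median and the number in brackets is the members tested. Matrix lists lie mostly left of 0, with cartilage matrix at a median of -0.88, while the redox and proteasome lists have medians of 0.14 and 0.14.

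Among secreted growth regulators, the gene with the smallest adjusted p was IGFBP3 (ENSBTAG00000003994), which binds insulin-like growth factors in serum and tissue and limits their action. It had 553, 583 and 507 CPM at the post, against 1125, 1255 and 1231 in the middle (log2 fold change -1.14, SE 0.143, edgeR BH-adjusted p = 0.000341), with no overlap between regions, and it held. FGF2, a mitogen stored on heparan sulfate, had 80.2, 69 and 72.2 CPM at the post, against 105, 129 and 119 in the middle (log2 fold change -0.67, SE 0.116, edgeR BH-adjusted p = 0.00241), and it held as well. These 2 of 29 measured IGF and FGF genes passed, both lower, and the list's median was -0.11. IGFBP4 had 173, 210.1 and 169.8 CPM at the post, against 175, 340.2 and 183 in the middle and did not pass (edgeR BH-adjusted p = 0.4). FGFR1, an FGF receptor, had a log2 fold change of 0.05 (edgeR BH-adjusted p = 0.917).

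The TGF-β pathway, whose ligand was in the medium of both regions, had 3 falls and 0 rises among 25 measured genes (median -0.16). INHBA, the activin A subunit, had 40.6, 39.1 and 30.9 CPM at the post, against 56.3, 75.4 and 65 in the middle (log2 fold change -0.82, SE 0.169, edgeR BH-adjusted p = 0.00975). The INHBA call ended without post 3 (0.0919). TGFBR3, the co-receptor betaglycan, had 44.8, 43.1 and 39.4 CPM at the post, against 54.3, 61.8 and 59.8 in the middle (log2 fold change -0.46, SE 0.103, edgeR BH-adjusted p = 0.018). The TGFBR3 call ended without post 3 (0.131) or middle 3 (0.0873). SMAD3, which carries the signal to the nucleus, had 14, 11.7 and 12 CPM at the post, against 19.8, 20.5 and 19.4 in the middle (log2 fold change -0.66, SE 0.167, edgeR BH-adjusted p = 0.0393), and the call did not hold. The SMAD3 call ended without post 1 (0.0596), post 2 (0.103), post 3 (0.166), middle 1 (0.0744), middle 2 (0.0568) or middle 3 (0.109). TGFBI, a target gene of the pathway, had 10.7, 18.3 and 11.8 CPM at the post, against 13.6, 73.6 and 17.2 in the middle, stood out in middle 2 alone and did not pass (edgeR BH-adjusted p = 0.198). Of 26 measured BMP and Wnt genes 0 passed (median -0.10). GREM1, the BMP antagonist gremlin, had 539, 587 and 593 CPM at the post, against 530.4, 435 and 433 in the middle (edgeR BH-adjusted p = 0.198).

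Other secreted proteins were among the largest falls. CCN5, a matricellular protein of the CCN family that lacks the C-terminal domain of its relatives, had 4.73, 4.93 and 5.37 CPM at the post, against 12.5, 20.8 and 12.1 in the middle (log2 fold change -1.49, SE 0.25, edgeR BH-adjusted p = 0.0019), and it held. SMOC2, a calcium-binding matricellular protein related to SPARC, had 61.1, 84.2 and 70.4 CPM at the post, against 121, 232 and 153 in the middle (log2 fold change -1.21, SE 0.292, edgeR BH-adjusted p = 0.0296). The SMOC2 call ended without post 1 (0.126), post 3 (0.126), middle 2 (0.0922) or middle 3 (0.0667), and in DESeq2 its adjusted p was 0.126. FGL2, a fibrinogen-like protein, had 13.2, 20.1 and 15.6 CPM at the post, against 29.8, 42 and 40.1 in the middle (log2 fold change -1.17, SE 0.168, edgeR BH-adjusted p = 0.000455), and NPTX1, a secreted pentraxin best known from synapses, had 14.8, 5.48 and 13.5 CPM at the post, against 34, 31.6 and 36 in the middle (log2 fold change -1.59, SE 0.221, edgeR BH-adjusted p = 0.00044); both held. SCARA5, a scavenger receptor that binds ferritin, had 3.15, 2.38 and 2.88 CPM at the post, against 10.1, 9.7 and 13.7 in the middle (log2 fold change -2.02, SE 0.28, edgeR BH-adjusted p = 0.00044). DIPK1C, of a family of secretory-pathway kinase-like proteins, had 3.35, 2.19 and 2.49 CPM at the post, against 9.61, 20.1 and 11.8 in the middle (log2 fold change -2.26, SE 0.333, edgeR BH-adjusted p = 0.000519), the steepest fall among genes of at least 10 CPM in one region. Both held, and in both the highest post library lay well below the lowest middle library. Under the same floor of 10 CPM, R3HDML completed the 12 largest falls. It had 12.6, 9.5 and 10.7 CPM at the post, against 19.9, 30.5 and 26.1 in the middle (edgeR BH-adjusted p = 0.00913). The R3HDML call ended without post 3 (0.0607) or middle 3 (0.0513).

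Of 16 measured glucocorticoid genes 1 fell and 0 rose (median -0.07). HSD11B2 (ENSBTAG00000005685), the enzyme that inactivates cortisol, had 6.31, 5.3 and 3.14 CPM at the post, against 13.5, 19 and 16.2 in the middle (log2 fold change -1.73, SE 0.223, edgeR BH-adjusted p = 0.000341), and it held. The receptor NR3C1 had 75.3, 67.4 and 76.3 CPM at the post, against 82.2, 89.1 and 83.8 in the middle and did not pass (edgeR BH-adjusted p = 0.319), nor did its target FKBP5, with a log2 fold change of 0.04 (edgeR BH-adjusted p = 0.914). Of 18 measured inflammation genes 2 fell and 0 rose (median -0.03). HP (ENSBTAG00000006354), haptoglobin, an acute-phase protein that binds free hemoglobin, had 6.51, 5.11 and 6.15 CPM at the post, against 14.7, 18.7 and 15.8 in the middle (log2 fold change -1.43, SE 0.188, edgeR BH-adjusted p = 0.000341). CXCL12, a chemokine of stromal cells, had 56.4, 55.7 and 50.3 CPM at the post, against 91.7, 67.5 and 93.7 in the middle (log2 fold change -0.66, SE 0.116, edgeR BH-adjusted p = 0.00241). Both held, and middle 2 was the top library for HP but the bottom middle library for CXCL12.

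The inflammatory cytokines IL6 and CXCL8 did not pass. IL6 had 8.87, 8.4 and 9.29 CPM at the post, against 4.54, 14 and 4.67 in the middle (edgeR BH-adjusted p = 0.485), and CXCL8 had a log2 fold change of -0.05 (BH-adjusted p = 0.974 in edgeR). Of 10 measured complement genes 2 fell and 0 rose (median -0.24). C1R, a protease of the first complement component, had 15.4, 19.7 and 13.3 CPM at the post, against 28.7, 28 and 31.5 in the middle (log2 fold change -0.89, SE 0.202, edgeR BH-adjusted p = 0.0206), and SERPING1, its inhibitor, had 6.31, 6.03 and 7.07 CPM at the post, against 14.2, 11.5 and 15.2 in the middle (log2 fold change -1.10, SE 0.233, edgeR BH-adjusted p = 0.0125). C1R ended without post 1 (0.078), post 3 (0.155) or middle 3 (0.0986), and SERPING1 without post 1 (0.0517), post 3 (0.054) or middle 3 (0.0745). CLU, clusterin, had a log2 fold change of -0.22 and did not pass (edgeR BH-adjusted p = 0.389). Of 12 measured interferon response genes 0 passed (median 0.11).

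The genes that rose at the post were fewer and their changes smaller. MT1A (ENSBTAG00000054808), a metallothionein that binds zinc and copper, had 140.2, 179.9 and 141 CPM at the post, against 83.3, 109.9 and 78.2 in the middle (log2 fold change 0.78, SE 0.133, edgeR BH-adjusted p = 0.00221), and it held; 69.8% of its counts sat in non-whole values, so copies of the gene cannot be separated. It was 1 of 6 measured metallothionein and zinc transport genes that passed. MT2A had 528, 757 and 541 CPM at the post, against 404, 616 and 425 in the middle, overlapping between regions, and did not pass (log2 fold change 0.34, SE 0.145, edgeR BH-adjusted p = 0.276). The zinc exporter SLC30A1 had a log2 fold change of 0.09 (edgeR BH-adjusted p = 0.796).

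Of 25 measured redox and NRF2 genes 3 rose and 1 fell, and the median was 0.14, with 20 values positive. Among those that rose were both chains of the iron store ferritin. FTH1 had 2314, 2880 and 2419 CPM at the post, against 1793, 1958 and 1570 in the middle (log2 fold change 0.52, SE 0.115, edgeR BH-adjusted p = 0.0177), and FTL had 712, 795 and 682 CPM at the post, against 550.3, 560.4 and 499 in the middle (log2 fold change 0.44, SE 0.107, edgeR BH-adjusted p = 0.0298). All counts of both genes sat in non-whole values, and the calls ended without post 2 (0.0701), post 3 (0.0507) or middle 3 (0.114) for FTH1 and without post 1 (0.0727), post 2 (0.102), post 3 (0.0611) or middle 3 (0.154) for FTL. TXNRD1, thioredoxin reductase, had 100.2, 117 and 99.7 CPM at the post, against 84.1, 67.5 and 76.2 in the middle (log2 fold change 0.46, SE 0.1, edgeR BH-adjusted p = 0.0151). The TXNRD1 call ended without post 2 (0.0691) or middle 3 (0.0694). Its substrate thioredoxin did not pass, with 1669, 2367 and 1780 CPM at the post, against 1398, 1563 and 1302 in the middle for TXN (log2 fold change 0.45, SE 0.125, edgeR BH-adjusted p = 0.062). GPX3, a secreted glutathione peroxidase, was the member that fell, with 193, 132 and 169 CPM at the post, against 219, 412 and 323 in the middle (log2 fold change -0.94, SE 0.204, edgeR BH-adjusted p = 0.0155). The GPX3 call ended without post 2 (0.0701), post 3 (0.065), middle 2 (0.0515) or middle 3 (0.0546). The list had 3, 0 and 1 called members without post 1, 2 or 3, and 4, 6 and 0 without middle 1, 2 or 3.

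The remaining genes among the 12 largest rises had diverse roles. Those 12 were ranked among called genes with a symbol, at least 10 CPM in a region and no overlap, which leaves out larger rises such as MSLN. PLAA, a ubiquitin-binding protein that activates phospholipase A2, had 42.6, 39.3 and 41.2 CPM at the post, against 23.5, 26.6 and 29.9 in the middle (log2 fold change 0.62, SE 0.114, edgeR BH-adjusted p = 0.00359), and it held. CREG1, a lysosomal and secreted glycoprotein, had 103, 117 and 110.1 CPM at the post, against 78.3, 81.2 and 69.6 in the middle (log2 fold change 0.54, SE 0.104, edgeR BH-adjusted p = 0.00632). The CREG1 call ended without middle 3 (0.0667). LMNB1, a lamin of the nuclear envelope, had 15.6, 15.3 and 13.9 CPM at the post, against 7.34, 8.98 and 10.7 in the middle (log2 fold change 0.73, SE 0.159, edgeR BH-adjusted p = 0.0162). The LMNB1 call ended without post 1 (0.0569) or middle 1 (0.102). BAX, a pore protein of programmed cell death, had 41.8, 40.4 and 44.4 CPM at the post, against 18.7, 29.5 and 34 in the middle (log2 fold change 0.65, SE 0.162, edgeR BH-adjusted p = 0.0368). The BAX call ended without post 1 (0.0932), post 2 (0.0568), post 3 (0.158) or middle 1 (0.179). CKS1B, a subunit of cyclin-dependent kinases, rose by 0.55, FEZ1, a kinesin adaptor, by 0.56, TMEM158, a membrane protein, by 0.55, DESI1, which removes SUMO tags, by 0.55, PTP4A1, a phosphatase, by 0.51 and HSPB7, a small heat shock protein, by 0.47 on the log2 scale. Their edgeR adjusted p were 0.0206, 0.0162, 0.00914, 0.0162, 0.0457 and 0.0203, in that order. CKS1B ended without post 2 (0.104) or middle 3 (0.0734), FEZ1 without post 1 (0.0517), post 2 (0.0653) or middle 3 (0.0972), TMEM158 without middle 3 (0.0667), DESI1 without post 3 (0.0702) or middle 3 (0.0742), PTP4A1 without post 2 (0.131), post 3 (0.198), middle 1 (0.0951) or middle 2 (0.119) and HSPB7 without post 1 (0.0588), post 2 (0.0568), post 3 (0.0651) or middle 3 (0.0667).

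Cells contract through actin and myosin and sense load through adhesions, channels and integrins. Of 23 measured contractile genes 0 passed in edgeR or DESeq2 (median 0.10; 6 at an unadjusted p of 0.05), and 2 passed without middle 2. ACTA2, smooth muscle actin, the usual marker of a myofibroblast, had 1062, 1315 and 1056 CPM at the post, against 959, 1284 and 965 in the middle (log2 fold change 0.10, SE 0.138, edgeR BH-adjusted p = 0.807), and TAGLN, transgelin, had 1791, 1845 and 1795 CPM at the post, against 1524, 2288 and 1799 in the middle (log2 fold change -0.05, SE 0.125, edgeR BH-adjusted p = 0.915); both overlapped between regions. CNN1, calponin, had 32.7, 42 and 33.2 CPM at the post, against 23.2, 41.3 and 23.2 in the middle (log2 fold change 0.38, SE 0.182, edgeR BH-adjusted p = 0.346), with only middle 2 reaching the post values. Of 24 measured YAP and SRF target genes and factors 0 passed in either tool (median 0.03; 4 at an unadjusted p of 0.05): CCN1 and CCN2, the classic YAP targets, had log2 fold changes of -0.12 and 0.08 (edgeR BH-adjusted p = 0.79 and 0.819). ANKRD1, another such target, had 5 counts in the 6 libraries together and was not tested. Of 24 focal adhesion genes 1 rose (4.17%, against 0.254% of all tested genes), VASP, which promotes actin filament growth, with 148, 155 and 179 CPM at the post, against 117, 139 and 122 in the middle (log2 fold change 0.36, SE 0.0943, edgeR BH-adjusted p = 0.0473). The VASP call ended without post 1 (0.052), post 2 (0.0568), post 3 (0.258), middle 1 (0.148) or middle 3 (0.185).

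Of 14 measured integrins 1 fell and 0 rose (median -0.23). ITGA10, the α subunit of a collagen receptor of chondrocytes, had 66.6, 41.1 and 64.1 CPM at the post, against 86.2, 70.8 and 82.6 in the middle (log2 fold change -0.49, SE 0.127, edgeR BH-adjusted p = 0.0438). The ITGA10 call ended without post 2 (0.157), post 3 (0.0641), middle 1 (0.12) or middle 3 (0.154). ITGB1, the β subunit shared by the collagen receptors, had a log2 fold change of 0.03 (edgeR BH-adjusted p = 0.928). Of 10 measured mechanosensor genes 1 fell: PKD1, polycystin 1 of the primary cilium, had 53.4, 46.8 and 52.5 CPM at the post, against 73, 108 and 81.2 in the middle (log2 fold change -0.75, SE 0.123, edgeR BH-adjusted p = 0.0016), and it held. The channels PIEZO1 and TRPV4 had log2 fold changes of -0.07 and -0.87 (edgeR BH-adjusted p = 0.866 and 0.177). Of 21 immediate early genes and 11 S100 genes 0 passed (medians 0.03 and 0.09).

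Among metabolic and housekeeping lists, of 21 glycolysis, 25 cholesterol, 27 ER chaperone, 12 heat shock, 18 amino acid, 76 nuclear respiratory chain, 62 cytosolic ribosomal, 41 proteasome and 21 autophagy and lysosome genes 0 passed in edgeR, with medians from -0.03 for ER chaperones to 0.14 for the proteasome. DESeq2 called 3 of the proteasome genes (PSMA1, PSMA2 and PSMB5), 2 of the respiratory chain (COX5A and SDHC) and 2 of autophagy and lysosome (SQSTM1 and NPC2), and 0 in the other 6 lists. Over all 11834 tested genes DESeq2 called 266. At an unadjusted p of 0.05, edgeR gave 16, 9 and 3 in these 3 lists, where 13.98% of all tested genes passed. In the proteasome list 33 of 41 log2 fold changes were positive. All 13 mitochondrially encoded genes had negative values (median -0.18) and 0 passed. Several list medians moved without middle 2. For ribosomal genes the median was 0.19 without that library and -0.0026 with it, and for glycolysis 0.21 and -0.0007. For hypoxia genes it was 0.13 without middle 2 and -0.0038 with it, and for contractile genes 0.20 and 0.10. Without middle 2, 2 glycolysis genes were called. GAPDH, a glycolytic enzyme often used as a reference gene, had 1511, 1865 and 1407 CPM at the post, against 1471, 3248 and 1524 in the middle and did not pass (edgeR BH-adjusted p = 0.392). Of 21 hypoxia genes LOX alone passed, and HIF1A had a log2 fold change of 0.03 (edgeR BH-adjusted p = 0.945). Of 21 lipid genes 1 fell, LPL, lipoprotein lipase, with 16.6, 24.3 and 15.2 CPM at the post, against 33.8, 59.6 and 35.6 in the middle (log2 fold change -1.15, SE 0.207, edgeR BH-adjusted p = 0.00314), and it held.

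Of 36 measured cell cycle genes 2 fell and 0 rose (median 0.00), and these have opposing roles. CDKN1C, the inhibitor p57 that holds cells out of the cycle, had 96.6, 124 and 98.7 CPM at the post, against 164, 206 and 186 in the middle (log2 fold change -0.80, SE 0.169, edgeR BH-adjusted p = 0.0125). The CDKN1C call ended without post 1 (0.0713) or post 3 (0.0795). CENPF, a kinetochore protein of dividing cells, had 16.4, 8.4 and 8.12 CPM at the post, against 17.6, 24.1 and 19.3 in the middle (log2 fold change -0.88, SE 0.198, edgeR BH-adjusted p = 0.0181). The CENPF call ended without post 2 (0.0739), post 3 (0.16) or middle 3 (0.0624). MKI67, the common marker of proliferation, had 7.1, 2.38 and 8.25 CPM at the post, against 5.34, 5.03 and 8.47 in the middle, overlapping between regions, and did not pass (edgeR BH-adjusted p = 0.931). CCND1, cyclin D1, had 562, 453 and 532 CPM at the post, against 408, 374 and 448 in the middle and did not pass (edgeR BH-adjusted p = 0.1).

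Among markers of cells other than fibrochondrocytes PRG4 alone passed, and most defining markers were at or near 0 counts. Of 13 endothelial markers 1 was measured, ERG, with a log2 fold change of -0.04, while PECAM1, CDH5 and VWF had 3, 5 and 5 counts in the 6 libraries. Summed endothelial markers ran from 68 to 78.7 CPM at the post and 58.9 to 80.3 CPM in the middle, of which ERG made up nearly all. Of 16 leukocyte and macrophage markers 5 were measured and 0 passed; PTPRC had 11 counts, and the sums were 17.4 to 24.2 CPM at the post and 16.8 to 23.4 CPM in the middle. Of 10 mural cell markers 6 were measured and 0 passed (sums 59 to 106 CPM at the post and 83.9 to 105 CPM in the middle), and RGS5 and MCAM were at 0. Of 13 skeletal muscle markers 2 were measured and 0 passed (sums 11.3 to 20.3 CPM at the post and 8.27 to 14.7 CPM in the middle), with MYOD1, MYOG and PAX7 at 0.

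The other marker lists were alike. Of 10 Schwann and neural markers 2 were measured and 0 passed (sums 384 to 436 CPM at the post and 369.6 to 488 CPM in the middle, mostly S100B, which chondrocytes also make), and SOX10 had 1 count. Of 7 red blood cell markers 2 were measured and 0 passed (sums 2.19 to 4.19 CPM at the post and 1.74 to 9.34 CPM in the middle), with ALAS2 and SLC4A1 at 0. Of 7 adipocyte markers 4 were measured and 0 passed (sums 301 to 507 CPM at the post and 374 to 562 CPM in the middle, mostly FABP4), and LEP had 1 count. Of 9 epithelial markers 3 were measured and 0 passed (sums 9.13 to 9.42 CPM at the post and 6.27 to 10.8 CPM in the middle), and EPCAM had 10 counts. Of 8 synovial lining markers 3 were measured and 1 fell, PRG4, which is also on the cartilage list; the sums were 219 to 276 CPM at the post and 339 to 479 CPM in the middle, CLIC5 and DNASE1L3 were at 0, and the part of such cells in the fall of PRG4 was not tested. For CD55 and UAP1, the other measured lining markers, the log2 fold changes were 0.15 and 0.09 (edgeR BH-adjusted p = 0.828 and 0.711).

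The same regions of tissue without anchors gave a separate set of 6 libraries, fitted in the same model. There, unanchored post and unanchored middle differed in 53 genes (0.448% of those tested), 8 higher (0.0676%) and 45 lower (0.38%) at the post. Of the 227 genes called in anchored tissue, 225 had the same sign in unanchored tissue, as did 70.3% of all tested genes. In 218 of the 227 the anchored libraries did not overlap. Among these 218, the unanchored libraries did not overlap in the same direction in 163, where 21% of all tested genes did not overlap in either direction. Both mold types called 44 genes, 41 lower and 3 higher, which is 19.4% of the anchored and 83% of the unanchored calls. The unanchored count was 16, 25 and 7 without unanchored post 1, 2 or 3, and 14, 3 and 129 without unanchored middle 1, 2 or 3. The 3 higher genes called in both were MSLN, MT1A and ENSBTAG00000068274, which has no symbol, and the 2 of opposite sign were FMR1 and ENSBTAG00000072723; these were named for their values. Deviations of unanchored libraries of the same number were positively correlated, though only number 3 stood apart from pairs of unlike number. With the replicate number as a block, 261 genes were called there (2.21%), the 53 among them. The labels do not give such a pairing, so these blocked calls rest on an assumption. With that block, 101 of the 227 anchored genes were called in unanchored tissue, all in the same direction, which is 44.5% of the anchored and 38.7% of the blocked unanchored calls. The 227 are from the fit without a block, and a block called 463 genes in anchored tissue, so these shares mix unlike models. Across all genes the 2 sets of log2 fold changes correlated at r = 0.54, a description over genes, which are not independent replicates.

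IGFBP3 showed the region difference in both mold types. It averaged 548 ± 38.7 CPM at the anchored post and 1204 ± 69.7 in the anchored middle, 695 ± 94.9 at the unanchored post and 1328 ± 89.9 in the unanchored middle, and 597 ± 154 with no mold (SD, n = 3 each). In unanchored tissue its log2 fold change was -0.94 (edgeR BH-adjusted p = 0.00348). HSD11B2 and HP had unanchored log2 fold changes of -1.04 and -1.14, PRG4 -1.01, SCARA5 -1.43 and MT1A 0.62, and all 5 passed there (edgeR BH-adjusted p = 0.0275, 0.00386, 0.0134, 0.013 and 0.0356). IGFBP3 passed in all 6 fits that left out one unanchored library, HP in 5, PRG4 in 4, SCARA5 in 3, HSD11B2 in 2 and MT1A in 1, and each of the 5 that did not hold failed without unanchored middle 2 (edgeR BH-adjusted p = 0.0702 for HP to 0.273 for HSD11B2 and MT1A). COMP did not pass, at -1.26 (edgeR BH-adjusted p = 0.0503), nor did CHAD, ABI3BP and XYLT1, at -1.05, -0.76 and -0.42 (edgeR BH-adjusted p = 0.0524, 0.0524 and 0.0524). With the replicate block these 4 passed (edgeR BH-adjusted p = 0.0005, 0.000199, 0.00202 and 0.0203). FGF2, INHBA and PLAA, called at the anchored post, had unanchored values of -0.25, -0.38 and 0.27 (edgeR BH-adjusted p = 0.321, 0.311 and 0.28; 0.184, 0.154 and 0.206 with the block).

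No gene was shown to differ between the mold types in its region effect. The interaction of region and anchoring passed in 0 of 11834 genes (0%) with edgeR, and DESeq2 and limma voom also gave 0. At an unadjusted p of 0.05, 223 genes (1.88%) passed in edgeR, 20 of them among the 227, and the smallest adjusted p was 1. Of the 227 genes, 217 had the larger log2 fold change in anchored tissue, where they were chosen. Of the 53 genes chosen in unanchored tissue, 37 were larger in anchored tissue, and all 53 had the same sign there. With no mold, the mean level lay below the anchored post in 70 of the 197 genes that fell, between post and middle in 110 and above the middle in 17. For the 30 genes that rose it lay above the post in 17, between the regions in 12 and below the middle in 1. These positions were not tested. As examples, ACAN averaged 87.3 ± 20.6 CPM at the anchored post, 192 ± 58.4 in the anchored middle and 213 ± 55.3 with no mold, while COL3A1 averaged 2324 ± 156, 3874 ± 121 and 2929 ± 494 CPM in the same groups and the ferritin chain FTH1 2537 ± 301, 1774 ± 194 and 3624 ± 355 (SD, n = 3 each).

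**Figure D5:**
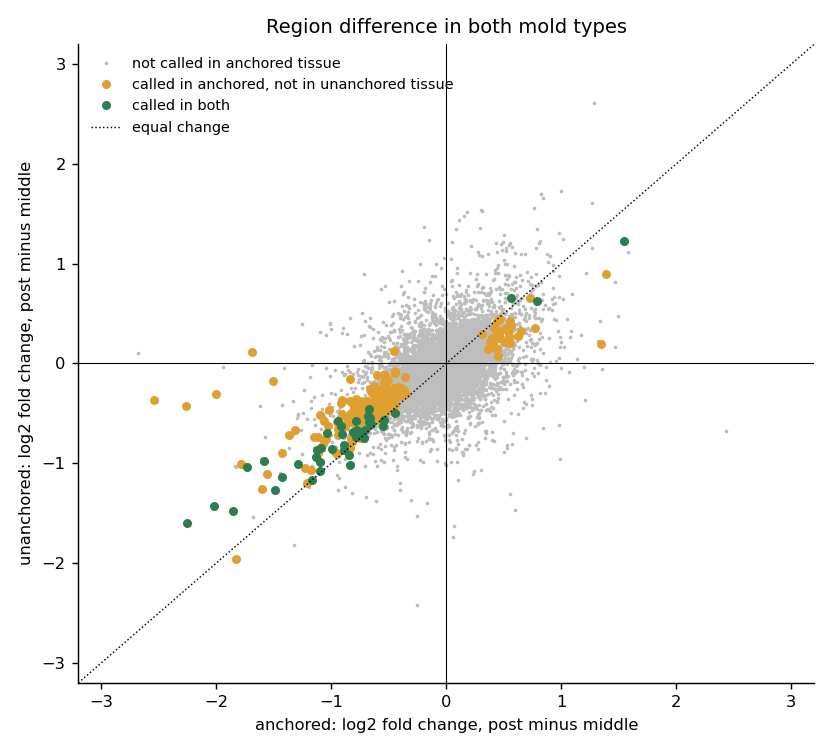
Each point is a tested gene, with its log2 fold change, post minus middle, in anchored tissue on the x axis and in unanchored tissue on the y axis; orange genes were called by edgeR in anchored but not in unanchored tissue, green genes in both, and the dotted line marks equal change. All but 2 of the 227 colored genes lie below 0 on both axes or above 0 on both, and 217 of them have the larger change in anchored tissue.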

How the data were processed

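The 15 libraries were grouped by the treatment label. Per the labels' protocols, poly-A RNA was primed with oligo-dT carrying a sample barcode and molecular identifier, and cDNA was tagmented. STAR 2.7, SAMtools 1.21, Subread 2.1.1 with featureCounts and MultiQC 1.33 were used, per the submitters' processing notes; the sources used here do not give the build, the annotation or the use of the identifiers. The authors deposited CPM and expected counts per gene (38001 bovine and 92 ERCC rows). Non-whole values held 43.4% to 47.2% of the anchored libraries' expected counts, which makes genes with close copies uncertain. Precision is limited by depth, 2986944 to 7415701 counts per anchored library.

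Expected counts were rounded, ERCC rows left out, genes filtered with filterByExpr (count 10, total 15), and all 15 libraries entered 1 edgeR 4.0.16 quasi-likelihood model (R 4.3.3, TMM, 1 mean for each group), with Benjamini-Hochberg adjustment over 11834 genes and a threshold of 0.05. Levels are TMM-normalised CPM and are not divided by gene length. SE is the size of the unshrunk log2 fold change over the square root of its F. The fit was tested on simulated counts.

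Genes named are the 12 largest rises and falls among called genes with a symbol, at least 10 CPM in a region and no overlap, up to 4 called and 2 uncalled members of each list, and a panel; others are said to be chosen for their values. Members and lists were chosen with earlier results of these data known. Alternatives were DESeq2 1.42.0, its size factors, limma 3.58.1 voom, other filters, rounding down, subsets of libraries, a replicate block and leaving out each library. Deviations of unanchored post and middle libraries of the same number from their group means had r = 0.146, 0.215 and 0.475 over 7708 genes. Unanchored pairs of unlike number had r from -0.325 to 0.153, so only number 3 stood clearly apart. Such a pairing is read from the data and not from the labels. Blocked values stand beside unanchored results only as an alternative. No sequence or coordinate was used.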

Additional observations from a re-analysis of the deposited data

Results flagged for a closer look

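The ERCC spike-in rows, sequences of synthetic RNA that the labels do not mention, held 272 counts over the 6 anchored libraries, 46, 36 and 70 at the anchored post and 39, 38 and 43 in the anchored middle. That was 0.00054% to 0.0013% of each anchored library's counts, and the source of these counts was not tested. The rows were left out of every test, and they stand here because no comparison uses them.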

How the results depend on the processing

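The count of genes for anchored post against anchored middle was 227. It was 479 with no filter on low counts and 105 with the 6 anchored libraries alone, and it ran from 62 (without post 3) to 283 (without middle 1) with one library left out. DESeq2 moved the split to 68 higher and 198 lower, against 30 and 197 with edgeR. For unanchored post against unanchored middle, 53 in the edgeR fit, the count was 272 with no filter, 133 with DESeq2 and 32 with the 12 molded libraries alone, and it ran from 3 to 129 with one library left out. The interaction gave 3 genes with no filter and 0 under the other alternatives run. A replicate block within each mold type called 463 genes for anchored, 261 for unanchored tissue and 0 for the interaction. Deviations of anchored libraries of the same number had r = -0.08, 0.181 and 0.291 over 7708 genes. Anchored pairs of unlike number had r from -0.317 to 0.147. In neither mold type did all 3 same-number pairs exceed every unlike pair, and the labels pair neither. Every blocked count therefore rests on an assumption. Of 170 named genes, 57 called, none changed sign in a called value. Calls were lost for 22 of the 57 with the 6 anchored libraries alone, 6 with the 12 molded libraries, 4 with DESeq2, 2 with its size factors and 1 each with no filter and limma voom, and for 8 to 33 with one library left out. A fit without genes of over 50% non-whole counts lost 1 call among the named genes it kept. It left out called genes such as PRG4, MT1A, FTH1 and FTL, so their calls were not retested there. The cause of these shifts was not tested. Leave-out fits assume that the remaining pair varies like the other groups. Depth limits genes of a few CPM, since middle 2 had 2986944 counts.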

Other observations

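Genes outside the lists were also called, and those below were chosen after their values were seen. ANXA2, annexin A2, a membrane-binding protein, had 828, 663 and 750.3 CPM at the post, against 1210, 1238 and 1122 in the middle (log2 fold change -0.67, SE 0.106, edgeR BH-adjusted p = 0.00124), and SLC40A1, the iron exporter ferroportin, had 45.7, 55.5 and 51.3 CPM at the post, against 78.1, 86.6 and 77.2 in the middle (log2 fold change -0.65, SE 0.113, edgeR BH-adjusted p = 0.00228). CALCRL, a receptor for adrenomedullin and CGRP, had 13, 9.68 and 8.9 CPM at the post, against 24.1, 16.5 and 23.6 in the middle (log2 fold change -1.09, SE 0.188, edgeR BH-adjusted p = 0.00228). All 3 passed with any one library left out. CHI3L1, a secreted chitinase-like protein of cartilage and synovium, had 71.8, 119.5 and 64.9 CPM at the post, against 169, 220.2 and 163 in the middle (log2 fold change -1.10, SE 0.214, edgeR BH-adjusted p = 0.00621). The CHI3L1 call ended without post 3 (0.0673). MGP, matrix Gla protein, which inhibits mineralisation, had 498, 558 and 453 CPM at the post, against 768, 1036 and 754 in the middle (log2 fold change -0.76, SE 0.182, edgeR BH-adjusted p = 0.0289). The MGP call ended without post 1 (0.101), post 3 (0.155) or middle 2 (0.0922).

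Other genes outside the lists had small adjusted p and unrelated roles. GOLGA4, a golgin of the Golgi apparatus, had 60.7, 52.6 and 52.5 CPM at the post, against 85, 104 and 108 in the middle (log2 fold change -0.84, SE 0.117, edgeR BH-adjusted p = 0.00044), AKAP9, an anchor for protein kinase A, had 41.6, 30.7 and 37.4 CPM at the post, against 55.8, 81.2 and 73.6 in the middle (log2 fold change -0.92, SE 0.135, edgeR BH-adjusted p = 0.000519), and REV3L, a DNA polymerase subunit, had 19.9, 21.4 and 18.4 CPM at the post, against 30.3, 40.6 and 34.3 in the middle (log2 fold change -0.79, SE 0.126, edgeR BH-adjusted p = 0.00134). These 3 passed with any one library left out. On the higher side, MSLN, mesothelin, a surface protein of mesothelial cells, had 8.48, 6.58 and 7.07 CPM at the post, against 3.07, 2.15 and 2.04 in the middle (log2 fold change 1.54, SE 0.251, edgeR BH-adjusted p = 0.00142), the largest called rise, and it passed with any one anchored library left out. In unanchored tissue it also passed (log2 fold change 1.23, edgeR BH-adjusted p = 0.0384), a call that ended with the removal of any one unanchored library. IL1RN, the interleukin-1 receptor antagonist, had 8.87, 10.2 and 10.3 CPM at the post, against 5.61, 5.39 and 6.13 in the middle (log2 fold change 0.77, SE 0.181, edgeR BH-adjusted p = 0.024). The IL1RN call ended without post 2 (0.0597), post 3 (0.126), middle 1 (0.0765) or middle 3 (0.0723).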
